A study of Mus musculus with 14 samples.

Results

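The genes of the proteasome were followed across 7 neuron types of the medial vestibular nucleus of mice. A gene was taken when its symbol in the array annotation begins with Psma, Psmb, Psmc, Psmd or Psme followed by a digit, which gave 38 symbols of 16244 genes. Of these, 36 encode subunits, activators or an assembly chaperone of the proteasome. The other 2 were admitted by their names alone. They are Psmc3ip, a partner of meiotic recombinases, and Psme3ip1, a protein that binds the activator subunit Psme3. Each gene was read from the probe set with the highest mean over 14 arrays, since 67 probe sets cover the 38 symbols and 16 symbols have several. RefSeq lists 43 protein-coding symbols of this kind, and Psma4, Psmb3, Psmd1, Psmd5, Psmd8, Psmd10 and Psme2 were not analysed here.

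The proteasome degrades proteins tagged with ubiquitin. Its core is a barrel of stacked rings, with alpha subunits (Psma genes) that gate the entrance and beta subunits (Psmb genes) that include the proteases. A regulatory particle caps the barrel. The base of that particle holds a ring of ATPases (Psmc genes) that unfold substrates, and its lid (most Psmd genes) removes ubiquitin chains. Other caps, the Psme activators, open the gate without ubiquitin. In neurons the proteasome is known for trimming synaptic proteins and for clearing damaged ones along long axons.

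The medial vestibular nucleus is a brainstem nucleus that handles signals of head motion. The mice, of 3 reporter lines (YFP-16, GIN, and GlyT2-13, all C57BL/6), were 24 to 32 days old. The transgenes of these lines are driven by regulatory sequence of Thy1, of Gad1 and of Slc6a5 in that order, and the labels give the 3 lines for every pool together, without saying which cells came from which line. Single-cell cDNA was amplified, the cells were sorted into types by their transmitter, channel and marker genes, and the cDNA of each type was pooled. The types are the excitatory E1 and E2 and the inhibitory I1a, I1b, I2, I3a and I3b. The design also names E3, which was not analysed here. Every pool was read on 2 arrays, its technical replicates. With 1 pool per type, the replicates measure technical spread and not that between animals. The labels do not say whether the 2 arrays of a pool share an amplification, so the steps that this spread covers are not known. In a pool, fewer cells with a transcript and less of it per cell cannot be told apart.

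Signals are on a log2 scale that starts at a floor of 2.39 and reached 15.9. Arrays of the same pool correlated at r = 0.981 to 0.992 over the 4409 genes kept, which are those with a pool mean of 5 or more in at least 1 type. All 4 neuron markers measured (Rbfox3, Snap25, Syt1 and Map2) were kept. Of 14 markers of astrocytes, oligodendrocytes, microglia and endothelium, 1 reached 5. This was Mbp, a myelin protein, at 5.50 in I1b and 6.20 in I3a against 2.43 to 3.43 in the other pools. The glial markers Gfap and Aldh1l1 lay at or next to the floor in every pool. Slc17a6, the glutamate transporter of excitatory brainstem neurons, stood at 10.48 in the pool labelled I1b at 8.60 in I1a and at 6.93 in I3a, beside 11.11 in E1 and 10.98 in E2. All 5 inhibitory pools read 9.20 or more for Slc32a1, the transporter of GABA and glycine. The excitatory pools also held inhibitory transcripts, with Slc32a1 at 6.60 in E1 and 5.41 in E2 and Gad1 at 7.80 and 6.80. Values without I1b are given for the comparisons of groups of pools.

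Of the 38 symbols, 16 passed the filter at 5. They comprise 7 of 17 core genes (Psma1, Psma2, Psma6, Psma7, Psmb1, Psmb4 and Psmb8), 5 of 8 base genes (Psmc1, Psmc2, Psmc3, Psmc4 and Psmc6), 3 of 7 lid genes (Psmd6, Psmd11 and Psmd14) and 1 of 3 activators (Psme4). The assembly chaperone Psmd9 and both symbols admitted by name alone stayed below it. The genes that passed are a subset chosen by signal, and an array probe set that stays low does not show that its gene is silent. Among the 22 symbols under the filter, 9 lay below 3 in every pool and 13 peaked between 3 and 5. On their own scales, Psma6 averaged 11.91 over the arrays, Psmc2 11.70 and Psmd6 11.63, while Psma7 averaged 5.13, Psmb8 5.37 and Psmb1 6.05. Signals of different probe sets are not comparable as amounts of transcript.

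**Figure D1:**
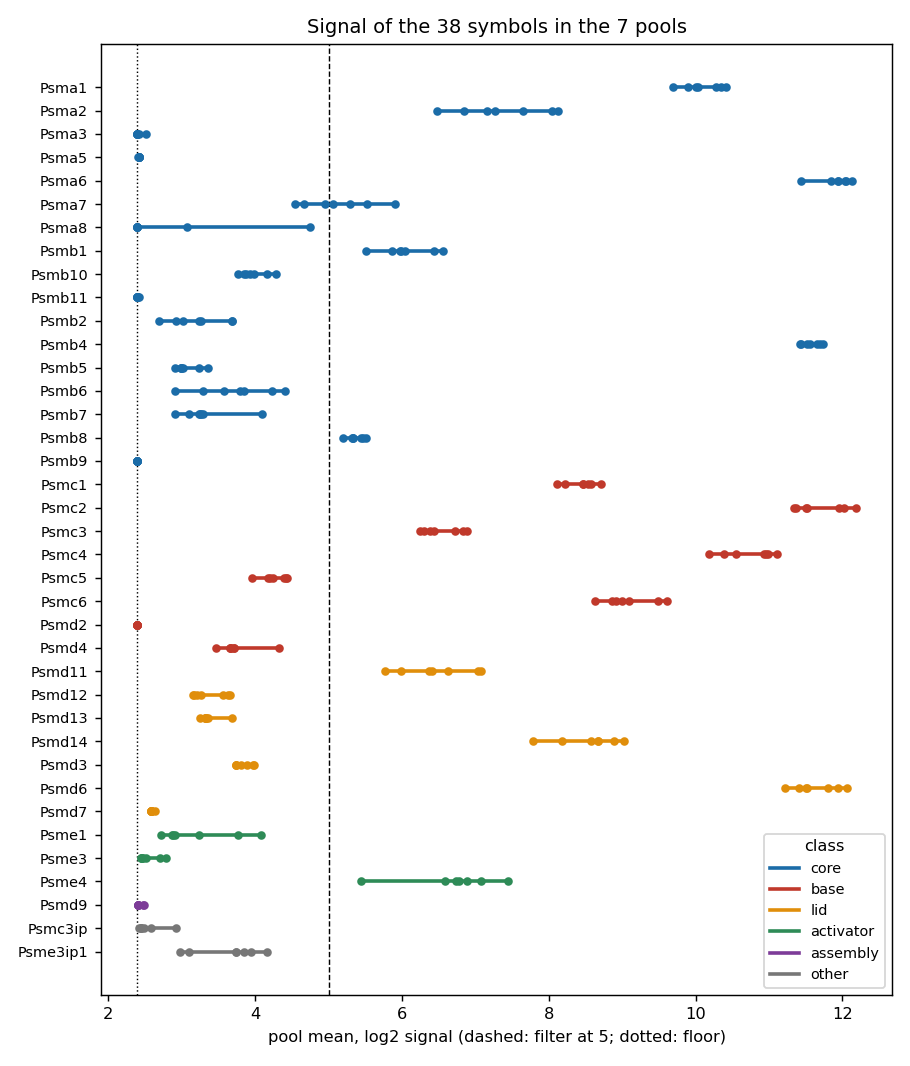
Pool means (log2 signal, horizontal axis) of the 38 symbols (vertical axis), with 7 points per symbol and colours for core, base, lid, activator, assembly and other. The dashed line is the filter at 5, which 16 symbols reached in at least 1 pool, and the dotted line is the floor at 2.39.

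The proteases of the core were read at low signal. Psmb5, the chymotrypsin-like subunit, ran from 2.90 in I3b to 3.36 in E2 by pool mean. Psmb6, the caspase-like subunit, ran from 2.90 in I3a to 4.40 in E2, and Psmb7, the trypsin-like subunit, from 2.91 in I1a to 4.09 in E1. The inducible counterparts that replace them in the immunoproteasome were read in the same way. Psmb9 lay at the floor on all 14 arrays and Psmb10 ran from 3.76 in E1 to 4.28 in I2. Psmb8 passed the filter through 1 probe set of the x_at kind, whose probes can match other transcripts, at 5.20 in I3a to 5.51 in I1a. Its other probe set lay at the floor of 2.39 in every pool, so the reading of Psmb8 rests on the first probe set alone. That probe set gave an identical 5.33 on both arrays of E2 and I3b and on the second array of E1, I1a and I3a. Whether it holds signal of Psmb8 transcript was not tested. Among 8 genes measured from a list of interferon response genes, 5 lay under 3 in every pool and B2m alone was kept. Psmb11, the thymus form of a core protease, was also at or near the floor.

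Psma8, the core subunit of testis, was above the floor in 2 pools. Its arrays read 4.61 and 4.88 in E2 and 3.31 and 2.84 in I2, and 2.39 on every array of the other pools. It did not reach the filter. Against pools at the floor the size of a difference is not measured, so none is given.

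The activator Psme4, also called PA200, a single large protein that caps the core, was the 1 activator kept. The excitatory arrays read 7.25 and 6.90 in E1 and 7.02 and 6.75 in E2. Of the inhibitory pools, I1a read 6.99 and 6.49, I1b 6.80 and 6.75, I2 7.56 and 7.31, I3a 5.91 and 4.99 and I3b 6.54 and 6.64. Both I3a arrays lay below all others, and both I2 arrays lay above all others. A second probe set of Psme4 had the same extremes at a lower signal, with 2.96 in I3a and 4.35 in I2. Psme1, a subunit of the interferon-inducible cap PA28, ran from 2.72 in E1 to 4.07 in I2, and Psme3, which forms the nuclear PA28 cap, stayed at 2.45 to 2.79.

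Promoter sequence was read for the members found in the RefSeq table for GRCm38.p6, which gives 250 bases before to 50 after each start. It held 34 windows of 31 members. Searched on both strands were TGACNNNGC, the core of the antioxidant response element that Nfe2l1 and Nfe2l2 bind, and CCAAT, the box of NF-Y. Matches of the 2 motifs may overlap and were counted separately. TGACNNNGC occurred in 12.4% of all 32851 windows, in 6 of 34 windows of members (17.6%), in 1 of 15 windows of the kept subunits (6.67%) and in 4 of 18 windows of members under the filter (22.2%). CCAAT occurred in 37.4% of all windows, 41.2% of those of members, 46.7% of those of kept subunits and 38.9% of those under the filter. A match describes letters and not a site in use. The last 150 bases before the start are printed for 4 genes: Psma2 and Psmd14, whose patterns over the pools were nearest the mean of the other kept subunits, Psmd11, whose pattern was farthest from it, and Psmb5, a protease with a TGACNNNGC match. Capitals mark a motif match.
Psma2 (chr13:14613092-14613241, plus strand): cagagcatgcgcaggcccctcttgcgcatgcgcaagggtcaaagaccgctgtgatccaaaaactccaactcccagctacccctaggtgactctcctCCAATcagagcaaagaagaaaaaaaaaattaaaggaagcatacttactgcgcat
Psmd14 (chr2:61711544-61711693, plus strand): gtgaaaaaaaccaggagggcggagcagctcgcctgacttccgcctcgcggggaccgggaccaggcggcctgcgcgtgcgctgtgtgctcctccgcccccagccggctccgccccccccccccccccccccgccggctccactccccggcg
Psmd11 (chr11:80428465-80428614, plus strand): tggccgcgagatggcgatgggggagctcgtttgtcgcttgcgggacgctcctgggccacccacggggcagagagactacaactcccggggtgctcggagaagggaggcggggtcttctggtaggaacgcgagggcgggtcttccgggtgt
Psmb5 (chr14:54617996-54618145, minus strand): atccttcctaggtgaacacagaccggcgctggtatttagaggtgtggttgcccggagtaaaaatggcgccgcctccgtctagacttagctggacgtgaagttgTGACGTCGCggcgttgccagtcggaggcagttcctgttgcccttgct
The CCAAT of Psma2 begins at position -54 and the TGACGTCGC of Psmb5 at position -47, counted back from the start. Psmd14 and Psmd11 have neither motif in the stretch printed, and Psmd14 has CCAAT matches elsewhere in its window.

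Which members differ between pools by more than technical error was asked with limma's moderated F-test on the 14 arrays. The call required a p-value under 0.05 after adjustment over all kept genes (Benjamini-Hochberg) and pool means that spanned 1 log2 unit or more. Of the 16 members kept, 6 were called, against 55.2% of all kept genes: Psma2, Psma7, Psmb1, Psmd11, Psmd14 and Psme4. At any size 13 of 16 passed the adjusted p, against 83.3% of all kept genes, and Psmb4, Psmb8 and Psmc1 did not. When a gene was averaged over all its probe sets, 2 of 11 members were called, beside 46.4% of all genes then kept. Psma7, Psmb1, Psmd11 and Psme4 fell under the filter there and were not tested. The members' median range over the pools was 0.89 log2 units, beside 1.13 for all kept genes. It was 0.72 in the core and 0.89 in base and lid. Genes within the subunits' span of mean level had a median range of 1.06.

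The alpha subunit Psma2 (Entrez gene 19166, at chr13:14613242-14625673 in GRCm38.p6) had a range of 1.65. The excitatory arrays read 8.03 and 8.05 in E1 and 7.65 and 7.65 in E2. Of the inhibitory pools, I1a read 6.30 and 6.67, I1b 7.84 and 8.43, I2 7.40 and 7.14, I3a 6.76 and 6.94 and I3b 7.07 and 7.26. The I1a arrays lay below all others, and E1 and I1b overlapped at the top. The F-test gave an adjusted p of 5.15e-05.

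Psmd14, the lid's deubiquitinase (Entrez gene 59029, at chr2:61711694-61800376), had a range of 1.24. The excitatory arrays read 9.21 and 8.85 in E1 and 8.79 and 8.54 in E2. Of the inhibitory pools, I1a read 8.03 and 7.55, I1b 8.86 and 8.91, I2 8.70 and 8.64, I3a 8.04 and 8.31 and I3b 8.48 and 8.67. Again both I1a arrays were the lowest, just under the lower I3a array. The adjusted p was 0.000378.

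Psmd11, a lid subunit that clamps lid, base and core together (Entrez gene 69077, at chr11:80428615-80473248), followed another order. The excitatory arrays read 7.09 and 6.99 in E1 and 5.98 and 5.57 in E2. Of the inhibitory pools, I1a read 6.58 and 6.67, I1b 6.21 and 6.52, I2 6.04 and 5.93, I3a 7.15 and 7.002 and I3b 6.37 and 6.45. E1 and I3a overlapped at the top, and E2 and I2 overlapped at the bottom, a range of 1.30 (adjusted p 7.87e-05). The other 5 probe sets of Psmd11 had pool means of 3.64 or less. The 2 highest of them ran the other way between the E pools, with 2.95 in E1 and 3.64 in E2 for the first and 2.41 and 2.98 for the second, and the second had its highest value, 3.49, in I3a as the main probe set did.

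Of the other core genes called, the alpha subunit Psma7 had a range of 1.37, from 4.48 and 4.61 on the I1a arrays to 5.87 and 5.95 on those of I2 (adjusted p 0.000234). I3a, at 4.47 and 4.87, overlapped I1a. Psmb1, a beta subunit without protease activity, ran from 5.47 and 5.55 in I3a to 6.58 and 6.54 in I1b, a range of 1.04 (adjusted p 0.00187). Both I3a arrays lay below every other array of Psmb1. The smallest ranges were 0.31 for Psmb8 and also for Psmb4, another beta subunit without protease activity, 0.60 for the ATPase Psmc1 and 0.64 for the ATPase Psmc3. Psmb8 ran from 5.07 to 5.68 and Psmb4 from 11.37 to 11.89 over the 14 arrays, and several Psmb8 arrays share an identical 5.33.

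**Figure D2:**
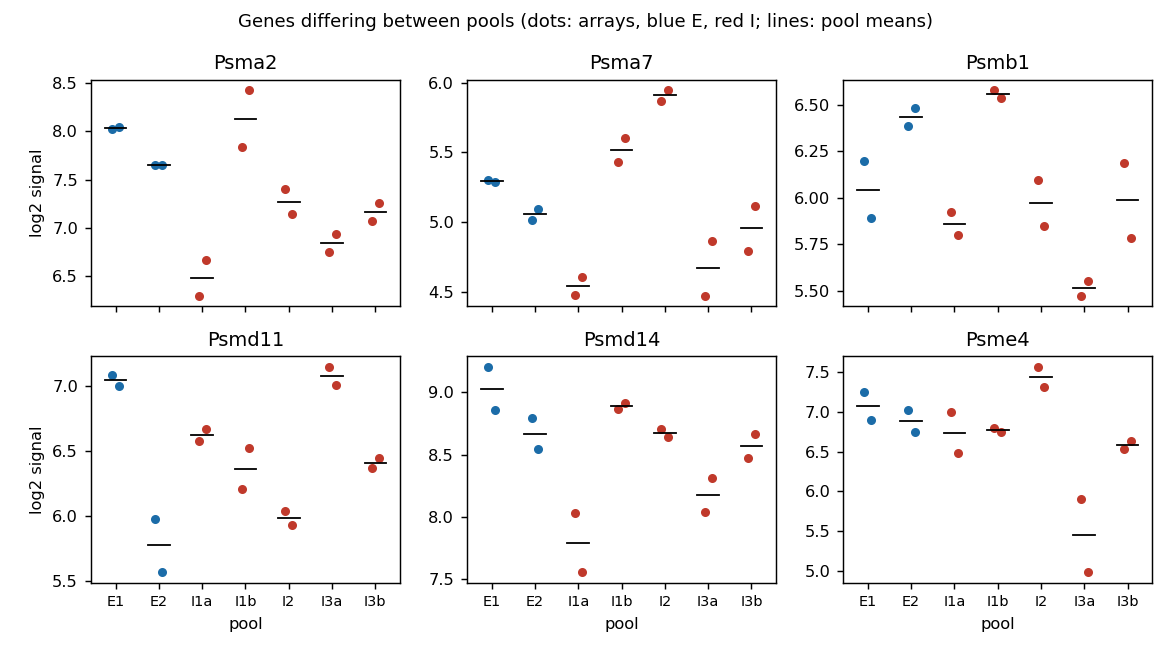
Log2 signal (vertical axis, a separate scale in each panel) of the 6 members called, by pool (horizontal axis); dots are the 2 arrays of a pool, blue for E and red for I, and lines are pool means. Psma2 and Psmd14 have their lowest arrays in I1a, Psmb1 and Psme4 in I3a, and Psmd11 has its lowest pool mean in E2.

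The core and the regulatory particle were compared by the mean of their members after each gene was set to its own mean over the pools. The 7 core genes stood at 0.27 in I1b, 0.19 in E1, 0.13 in E2, 0.05 in I2, -0.10 in I3b, -0.18 in I3a and -0.36 in I1a. The 8 genes of base and lid stood at 0.34 in E1, 0.18 in I1b, 0.09 in E2, -0.07 in I2, -0.11 in I3a, -0.18 in I3b and -0.26 in I1a. Thus E1, E2 and I1b were above the mean in both parts, and I1a, I3a and I3b were below it. The 2 arrays of I1a lay apart from those of I1b in either part, with -0.34 and -0.38 against 0.21 and 0.34 in the core and -0.17 and -0.35 against 0.18 and 0.19 in base and lid. Over the 7 pools the parts correlated at Pearson's r = 0.88 and Spearman's rho = 0.93. They share arrays, and all kept genes also had their lowest mean, -0.17, in I1a. The base went with the core most closely, at r = 0.93, while the lid, with 3 genes, had r = 0.57 with either. In E2 the lid stood at -0.09 and the base at 0.20, but 2 of the 3 lid genes were above their own mean there. Psmd11 alone was below its mean, at -0.69, and sets the lid value in E2. After the mean of all kept genes was taken off each pool, r was 0.84 and rho 0.71. The mean of all kept subunits also ran against some controls over the pools. The r was -0.72 for the excess of Gapdh 3' over middle probes, -0.54 for the bacterial control BioB and -0.56 for the control Cre. For the controls Lys and Dap it was -0.46 and -0.27, for Gapdh 3' probes 0.03 and for Gapdh middle probes 0.52. The part of these controls was not tested. Subunits on x_at probe sets (6) and on other probe sets (9) correlated at r = 0.80.

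**Figure D3:**
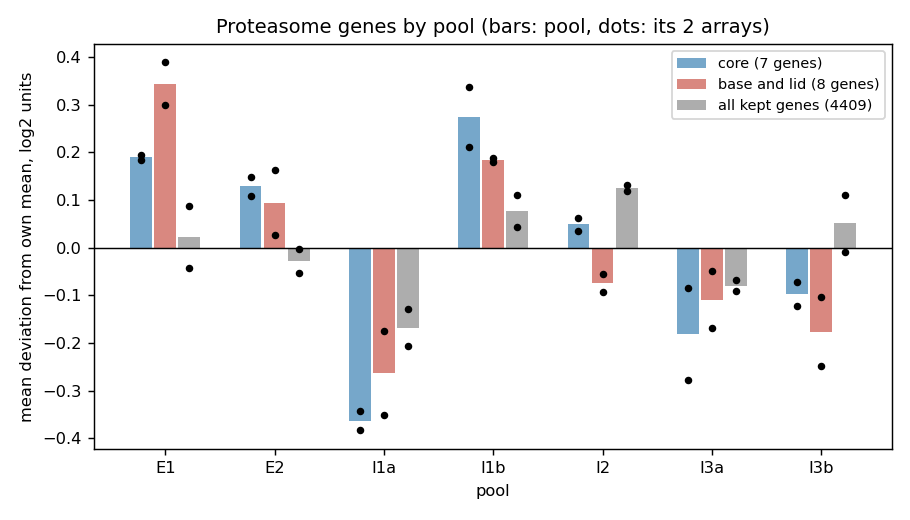
Mean deviation from each gene's own mean over 7 pools (log2 units, vertical axis) by pool (horizontal axis) for 7 core genes, 8 genes of base and lid and all 4409 kept genes; bars are pools and dots their 2 arrays. Core and base and lid are both lowest in I1a, at -0.36 and -0.26, where all kept genes are at -0.17.

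Among single members, Psma2 had the pattern most like the mean of the other kept subunits, with r = 0.97 over 7 pools, followed by Psmd14 with 0.90 and Psma6, an alpha subunit, with 0.86. Psmb8 had r = -0.08 and Psmd11 -0.25. The median r over 105 pairs of kept subunits was 0.47, beside 0.05 over pairs of all kept genes, and 78.1% of subunit pairs were above 0 beside 53.9%. These r are descriptions over 7 pools that share arrays. I1a held the lowest pool mean for 7 of 16 members, beside 23.2% of all kept genes. I1b held the highest for 5 (13.5% of all kept genes) and E1 for 4 (14.7%). Neither held the lowest for any of the 16, beside 7.48% of all kept genes for I1b and 11.7% for E1. For 8 kept subunits a second probe set also reached 5. Its pattern over the pools correlated with the first at r = 0.81 to 0.89 for Psma6, Psmb4, Psmc2, Psmc4, Psmc6 and Psmd6, but at 0.38 for Psma1 and 0.23 for Psmc1.

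**Figure D4:**
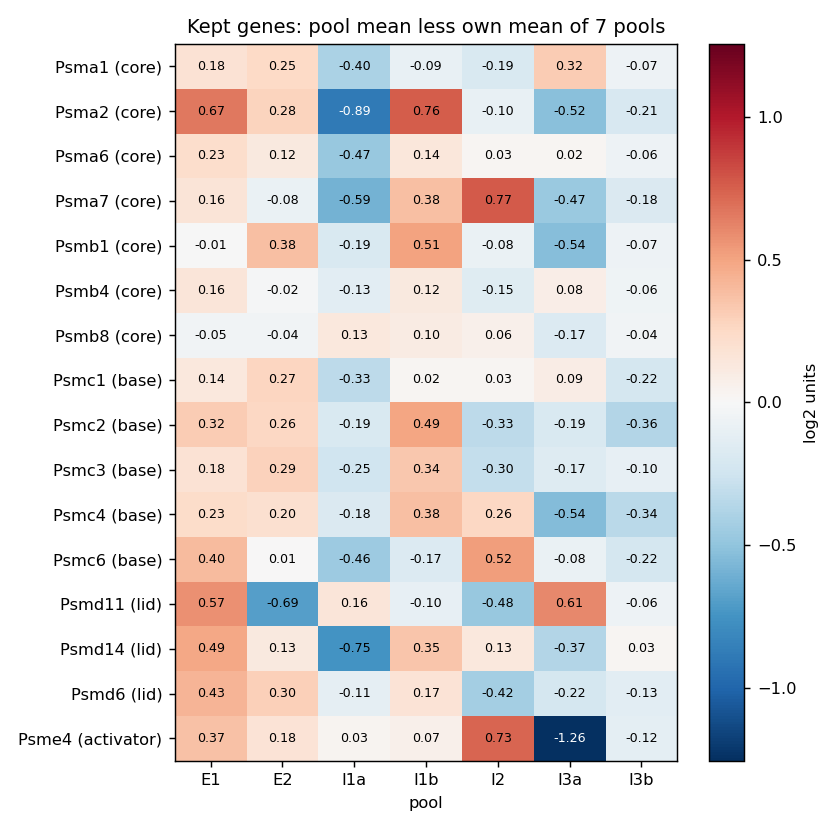
Pool mean less the gene's own mean over 7 pools (colour and printed value, log2 units) for the 16 kept members (rows) in each pool (columns). The I1a column is below 0 for most members, while Psmd11 stands above 0 in I1a and I3a, and Psme4 has its lowest value in I3a.

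Whether excitatory and inhibitory types differ was asked by setting 2 E pools against 5 I pools, with pool means as replicates. No member was called by limma, and 1 of 16 had an unadjusted p under 0.05. Of all kept genes 0.0227% were called (1 gene), and 6.19% had an unadjusted p under 0.05. That member was Psmd6, a lid subunit. Its arrays read 12.07 and 12.05 in E1 and 11.96 and 11.91 in E2, while the I arrays ran from 11.13 in I2 to 11.91 in I1b. The pool means did not overlap, and the difference was 0.51 log2 units (SE 0.17, unadjusted p 0.0193, adjusted p 0.737 in limma). Psma2 differed by 0.67 (SE 0.42, adjusted p 0.780) and Psmd14 by 0.43 (SE 0.32, adjusted p 0.807), with I1b above or among the E pools in both. The ATPase Psmc1 was the other member without overlap between pool means, of 2 in all (5.99% of all kept genes had no overlap with E higher). Its pool means were close, with 8.58 in E1 and 8.54 in I3a, and its highest array, at 8.80, was from I3a. On its second probe set the pools overlapped, with 8.28 in E1 below 8.50 in I1b and 8.53 in I3b.

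In direction, 14 of 16 differences were positive, with a median of 0.29 (all kept genes: 49.3% positive, median -0.01). The exceptions were Psmb8 at -0.06 and Psmd11 at -0.08. The median was 0.24 in the core, 0.30 in the base and 0.43 in the lid. The number stayed at 14 of 16 with arrays centred on their medians and with quantile normalization. Apart from that of Psmd6, each difference was smaller than 2 of its standard errors. Without I1b the median was 0.29 in the core and 0.43 in base and lid together, and Psmd6 differed by 0.59 (adjusted p 0.340). Without I1a it was 0.14 in the core, and without I3a also 0.14, against 0.24. Over all 17 core genes, with no filter, it was 0.10. Beside this direction, a control for transcript coverage moved: the signal of Gapdh probes at the 3' end exceeded that of probes in the middle by 2.13 in E1 and 2.25 in E2 and by 2.44 to 2.60 in the I pools. Its part in the result was not tested.

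**Figure D5:**
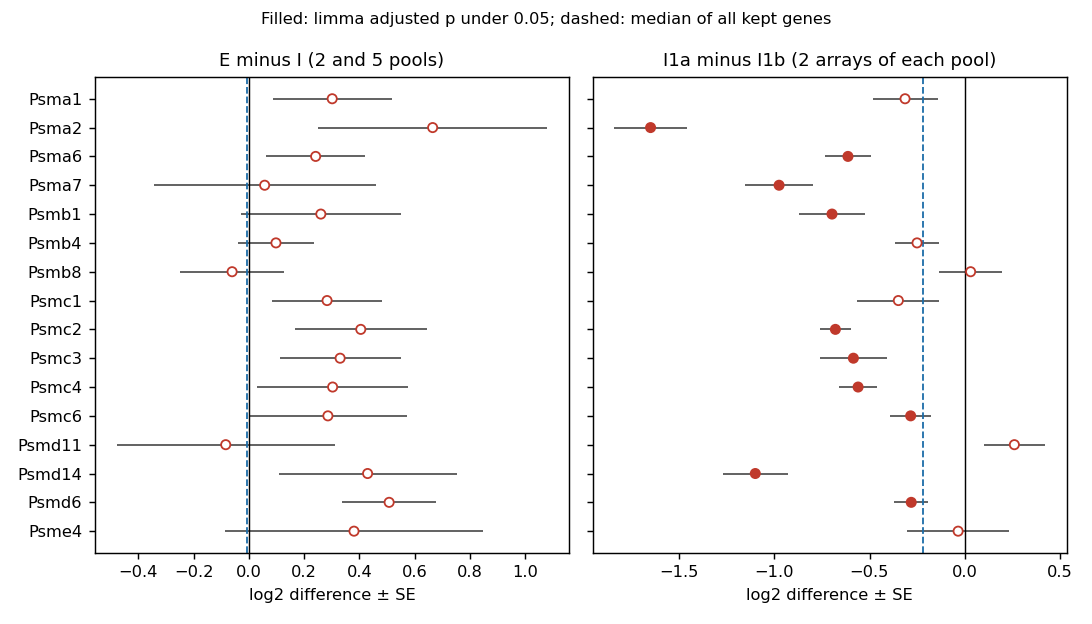
Differences of the 16 kept members (log2 units ± SE, horizontal axis) for E minus I over pool means and for I1a minus I1b over arrays. Filled points passed an adjusted p of 0.05, which none did on the left and 10 did on the right, and dashed lines mark the median of all kept genes, -0.01 and -0.22.

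The I1 and I3 families were compared with 2 pools of each. None of 4409 genes was called by limma (0% of all kept genes), while 11.2% of them and none of the 16 members had an unadjusted p under 0.05. Psme4 differed by 0.74 (SE 0.40, adjusted p 0.567), the ATPase Psmc4 by 0.54 (SE 0.24, adjusted p 0.486) and Psmb1 by 0.46 (SE 0.34, adjusted p 0.679). Psmc4 read 10.60 and 10.50 in I1a and 11.14 and 11.07 in I1b, against 10.24 and 10.13 in I3a and 10.23 and 10.55 in I3b. Pool means did not overlap, with I1 higher, for Psmb8, Psmc2, Psmc4, Psmd6 and Psme4 (5 of 16, beside 16.9% of all kept genes). With I1 lower this held for the alpha subunit Psma1 (1 of 16, beside 23%). Psmb8 had an identical 5.33 on both I3b arrays and on the second array of I1a and I3a. Psma1 was read from an x_at probe set, with a difference of -0.37. On its second probe set the difference was 0.02, and the pools overlapped. Differences were positive for 9 of 16, beside 46.2% of all kept genes, and for 11 with centring or quantile normalization. The core median was 0.22 and that of base and lid 0.07. Without I1b these were -0.27 and -0.12. Without I1a the median of base and lid was 0.41. Without I3a, Psme4 differed by 0.17, so single pools set these values.

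The remaining comparisons set pairs of pools of like name against each other on all 14 arrays. Their error is that between arrays of a pool, and a difference is one between pools. E1 and E2 differed in 1 called member, against 7.39% of all kept genes. Psmd11 was higher in E1 by 1.26 log2 units (SE 0.16, adjusted p 0.000165 in limma), and its 2 E1 arrays lay above both E2 arrays. At any size 2 of 16 passed, against 27.7%. The second was Psmc6, an ATPase, at 9.49 and 9.48 in E1 and 9.17 and 9.02 in E2 (difference 0.39, SE 0.11, adjusted p 0.0176). Psmb1 differed by -0.39 with an adjusted p of 0.115.

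I1a and I1b differed in the most members of the 3 pairs at any size. Of 16 members, 10 passed the adjusted p (43.3% of all kept genes did), and all 10 were lower in I1a, where 34.2% of all kept genes were lower and 9.16% higher. At 1 log2 unit or more 2 were called, against 13.1% of all kept genes: Psma2 with a difference of -1.65 (SE 0.19, adjusted p 4.05e-05) and Psmd14 with -1.10 (SE 0.17, adjusted p 0.000311). Psma7 followed with -0.97 (adjusted p 0.00105). The others lower in I1a were Psma6 at -0.61, Psmb1 at -0.70, the ATPases Psmc2 at -0.68, Psmc3 at -0.58, Psmc4 at -0.56 and Psmc6 at -0.28, and Psmd6 at -0.28. By part, 4 of 7 core genes, 4 of 5 base genes and 2 of 3 lid genes were lower. Psmd11 (0.26), Psmb8 (0.03) and Psme4 (-0.04) did not pass.

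All kept genes had a median difference of -0.22 between these pools, and 13 of 16 members lay below that shift. With arrays centred on their medians, 6 members were lower and 1 higher in I1a, where 22% of all kept genes were lower and 18.6% higher, and the members' median was -0.21 in place of -0.45. Quantile normalization also gave 6 lower and 1 higher, beside 23.1% and 19.3% of all kept genes. With x_at probe sets left out, 10 of 15 were lower, beside 35.6%. Centring and quantile normalization each left 1 member called, Psma2, with Psmd14 at -0.86 and -0.83. The share of all kept genes called at that size under these scalings is not given here. Without the second I1a array Psmd14 differed by -0.86. Other signals moved with this pair. The bacterial control BioB read 8.89 in I1a and 7.88 in I1b, Rbfox3 8.55 and 9.48, Snap25 12.90 and 13.57, Slc17a6 8.60 and 10.48 and Mbp 2.43 and 5.50, while the other 3 oligodendrocyte markers stayed under 3 in every pool. Their part in the result was not tested.

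I3a and I3b differed in 1 called member, against 9.91% of all kept genes. Psme4 was lower in I3a (difference -1.14 log2 units, SE 0.27, adjusted p 0.00695). That call rests on the second I3a array, which read 4.99 beside 5.91 on the first, and without it the difference was -0.68 (adjusted p 0.061). It was also not called with quantile normalization, where the difference was -0.98, or without the filter, where the difference stayed at -1.14 and the adjusted p was 0.0672. At any size 2 of 16 passed, against 31.7% of all kept genes. Psmd11 was higher in I3a by 0.67 (SE 0.16, adjusted p 0.00842), with 7.15 and 7.002 in I3a above 6.37 and 6.45 in I3b. Psmb1 differed by -0.47 with an adjusted p of 0.0544. Beside these, Rbfox3 read 8.37 in I3a and 5.39 in I3b, Syt1 6.68 and 9.44 and Slc17a6 6.93 and 3.19. Mbp read 6.20 in I3a and 3.43 in I3b, the astrocyte connexin Gja1 4.19 and 2.41, and the other 4 astrocyte markers stayed under 3 in every pool. Their part in the result was not tested.

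Genes around the proteasome were taken from a list of 38 assembly factors, bound proteins, transcription factors and ubiquitin carriers, of which 27 were measured and 18 kept. In the F-test 4 of 18 were called, beside 55.2% of all kept genes: Ubqln1 and Ubqln2, which carry ubiquitinated proteins to the proteasome, Uchl5, a deubiquitinase bound to it, and Ecpas, an adaptor of it. No gene of the list was called between E and I or between I1 and I3. Between E and I, Ecpas differed by 0.71 (adjusted p 0.753), Pomp, the assembly factor of the core, by 0.47, Nfe2l1, the transcription factor that raises proteasome genes on demand, by 0.46, and Ubqln1 by 0.45. Between I1 and I3, Uchl5 differed by 0.88 (adjusted p 0.388). Between I1a and I1b, 6 of 18 passed the adjusted p at any size, all lower in I1a, beside 34.2% of all kept genes that were lower: Ube3c, a ubiquitin ligase of the proteasome, at -0.96, Sem1, a small lid subunit outside the Psm names, at -0.73, Txnl1 at -0.59, Ubqln2 at -0.49, Rad23b at -0.45 and Zfand5 at -0.35. Between I3a and I3b, where 31.7% of all kept genes passed at any size, 3 of 18 did, and all were lower in I3a, namely Zfand2a at -0.63, Ubqln1 at -0.51 and Ubqln2 at -0.36. Between E1 and E2, where 27.7% of all kept genes passed, Ubqln2 alone of the list did, at -0.42.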

How the data were processed

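The deposited table holds log2 values that the authors made with affy and GCRMA, per the submitters' processing notes (versions not stated). GCRMA corrects background from probe sequence, scales arrays to each other and gives 1 value per probe set. The table has 30843 probe sets, and 15.1% to 16.4% of them reached 5 on an array. Arrays have no read depth, and their number limits the precision.

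Computation used R 4.3.3 with limma 3.58.1. Of several probe sets with a single symbol the highest on average stood for the gene, which was kept at a pool mean of 5 or more in at least 1 type (4409 of 16244 genes). E against I and I1 against I3 were fitted on 7 pool means (5 and 3 residual degrees of freedom), pairs of pools and the F-test on 14 arrays (7). All fits covered all kept genes, with an intensity trend in eBayes and Benjamini-Hochberg adjustment. Scripts were tested on simulated data.

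Members and lists (other genes of the pathway, markers of cell types, interferon response) were chosen with earlier results of these data known. Named were catalytic, inducible, tissue-specific and activator members, called members or the 3 largest differences per comparison, the widest and narrowest ranges, and from the pathway list called genes and up to 4 largest differences; others were named after their values were seen. Alternatives covered probe set choice, filter, scaling, floor, trend, size, block and left-out arrays or pools.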

Additional observations from a re-analysis of the deposited data

Results flagged for a closer look

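The ATPase gene Psmc2 was at 12.19 in I1b, apart from the 4 other inhibitory pools, which lay between 11.34 and 11.51. The gap to the nearest inhibitory pool was 0.79 of the range over the inhibitory pools, above the critical value of 0.71 for 5 samples. The excitatory pools were outside this check and read close to I1b, with 12.02 in E1 and 11.96 in E2. Of 16 members examined in this way Psmc2 was the 1 found. By its definition the critical value is passed by about 5% of groups through chance alone, and 1 of 16 is close to that. The share of all kept genes that pass it is not given here.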

How the results depend on the processing

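The counts of members called kept within 1.5 times their main value in 91 of 104 alternatives. These counts describe how stable the calls were and not how members compare with all kept genes, whose shares are not given here. Averaging all probe sets of a gene gave 0 called members for E1 against E2 (1 in the main analysis), 0 for I3a against I3b (1) and 2 in the F-test (6), but Psma7, Psmb1, Psmb8, Psmd11 and Psme4 fell under the filter there, so both pairs lost their called member without a test of it. Without a filter the counts were 2 for E1 against E2, where Psma8, at the floor in E1, joined, and 0 for I3a against I3b. Quantile normalization gave 1 for I1a against I1b (2 in the main analysis) and 0 for I3a against I3b, and centring gave 1 for I1a against I1b. With no minimum size the counts were 2, 10 and 2 for the pairs and 13 in the F-test. Leaving out single arrays gave 0 to 1 for I3a against I3b, with 0 without I3a replicate 2. E against I and I1 against I3 had 0 called members in every alternative run, including each pool left out. Of 228 values for named genes under alternatives, 6 lost and 5 gained a call, and none changed direction. The median differences of core and of base and lid were less stable: of 64 alternatives 37 counted as the same and 27 as moved. Between I1 and I3 the core median ran from -0.27 to 0.29 and that of base and lid from -0.12 to 0.41. Between E and I they stayed positive, at 0.10 to 0.29 and 0.28 to 0.46. Replicate numbers did not pair the samples: deviations of same-numbered arrays correlated at -0.12 to 0.21 over 21 pairs. With the replicate number as a block the counts were 1, 2 and 1 for the pairs and 6 in the F-test, as without the block. Probe sets of the x_at kind were left out as a choice made after the data were seen, and no count of calls changed. Limits include 1 pool per type and, for the 22 members under the filter, a low signal.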

Other observations

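Values of some genes named after they were seen follow, with no test of a theme. I2 held the highest pool mean for 29.2% of all kept genes. Psme1, a subunit of the interferon-inducible PA28 cap, read 4.31 and 3.83 on the I2 arrays. The I3b arrays, at 3.68 and 3.86, overlapped these, and those of I3a read 3.53 and 2.95. In a limma F-test over the 7 pools without a filter its adjusted p was 0.0151, which does not single out a pool. Psmf1, an inhibitor of the proteasome, was at 4.30 in I2 and 2.996 to 3.90 in the other pools. Its I2 arrays, at 4.14 and 4.46, overlapped those of I3b, at 4.34 and 3.47. B2m, the light chain of class I antigen-presenting molecules, was at 7.34 in I2 and 4.49 to 6.03 in the other pools, whereas Tap1, the peptide transporter of the same pathway, lay at the floor of 2.39 in every pool. Tapbp, also of the interferon list, was highest in I2 at a low signal, with 2.90 beside 2.42 to 2.46 in the other pools. Its I2 arrays read 3.22 and 2.58, the second close to an E1 array at 2.48. Some genes of that list had their highest values elsewhere, as Irf1 with 3.76 in I3a, H2-K1 with 2.98 in I3b and H2-D1 with 3.86 in E1. Psme3ip1, admitted by its name alone, was lower in I3a than in I3b (difference -0.96, adjusted p 0.0017) and in I1a than in I1b (difference -0.74, adjusted p 0.00407) in the limma fit without a filter.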
